A study of Rattus norvegicus with 9 samples.

Results

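Liver RNA from rats that had a burn and CLP was compared with liver RNA from rats that had a sham procedure and CLP, on 6 of the 9 arrays of the series. The sample titles name these groups Burn-CLP and Sham-CLP, with 3 arrays in each, numbered 1 to 3. Both groups share CLP, and by their names they differ only in whether a burn or a sham took the place of the other procedure, so the comparison asks what a burn adds to the liver's state after CLP. The remaining 3 arrays, titled Sham-Sham, took no part in the main fit and are given as a reference level. They entered only 1 alternative fit, over all 9 arrays. The labels give whole liver as the source and total RNA as the molecule. They do not give the strain, sex or age of the rats, the extent of the burn, the order or timing of the procedures, or whether each array stands for a rat of its own. The p-values therefore weigh the difference between groups against the spread between arrays of a group, and that spread may be technical. If it is, they say nothing about variation between rats. CLP is not written out in the labels. In rodent studies the letters stand for cecal ligation and puncture, an operation that lets gut bacteria leak into the abdomen and causes sepsis.

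The liver meets an abdominal infection with the acute phase response, in which hepatocytes under interleukin-6 and glucocorticoids secrete defence proteins and make less of the carrier proteins they otherwise release. A large burn is known for a long stress response in which glucocorticoids are high and amino acids move from muscle to liver, where they feed glucose and urea synthesis. The liver also makes much of the body's cholesterol and fat, and the transcription factors SREBP-2 and SREBP-1 switch the genes of these pathways on as groups.

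Of 15866 probe sets that are not controls, 12986 were tested, namely those above a signal of 62.6 on at least 3 of the 6 arrays. This lower limit is the 20th percentile of all signals, and smaller signals were raised to it before log2 was taken. Signals are printed as they were before that step, and an array under 62.6 is said to be at the limit. No probe set (0) passed limma's test at an adjusted p under 0.05, and the smallest adjusted p was 0.0618. At an unadjusted p under 0.05 there were 1617 probe sets, 12.5% of those tested. Of these, 749 (5.77%) were higher in Burn-CLP and 868 (6.68%) were lower, a split that was 1471 higher and 680 lower with the deposited scaling. In 2544 probe sets (19.6%) the 3 arrays of each group did not overlap, with Burn-CLP higher in 9.99% and lower in 9.6%. A log2 difference of at least 1 was seen in 296 probe sets, 104 of them higher and 192 lower in Burn-CLP, and 219 of the 296 had groups that did not overlap. The tested probe sets with 1 gene symbol stood for 9050 genes. At the unadjusted threshold 5.73% of these genes were higher and 6.64% were lower in Burn-CLP, their groups did not overlap in 20.1% (10.2% higher and 9.89% lower), and their median log2 difference was 0.02. The gene groups described in what follows are read against these shares, and counts of a few genes in a list moved with the scaling and with single arrays. Lists share members, so their counts are not separate results. Sds and Got1 are in the glucocorticoid, glucose output and amino acid breakdown lists. Acsl3 is in the lists of fatty acid synthesis and oxidation, and Igfals in those of plasma proteins and the growth hormone axis. Differences are log2 differences, Burn-CLP minus Sham-CLP, with their standard error (SE) from limma for n = 3 per group, and since none passed after adjustment, all are given as values. Because whole liver was measured, fewer cells of a type and less RNA per cell cannot be told apart.

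Deposited medians were 205 to 212.4 on the Sham-CLP arrays but 231.3 to 235.5 on the Burn-CLP arrays, at a common trimmed mean, and quantile normalization removed this offset. Burn-CLP 3 stood closer to the Sham-CLP arrays than the other Burn-CLP arrays did, with a mean correlation of 0.969 with them, against 0.96 for Burn-CLP 1 and 0.946 for Burn-CLP 2. Without Burn-CLP 3, 73 probe sets passed (14 higher and 59 lower in Burn-CLP), and without any other single array 0 passed, with 1161 to 1345 at an unadjusted p under 0.05. The 3'/5' signal ratios of the control probe sets for Gapdh and beta-actin lay between 0.9915 and 1.458 and between 1.148 and 1.77 on the 6 arrays, and the part of RNA quality in the results was not tested. The hepatocyte gene Alb, which encodes albumin, was among the brightest probe sets on every array, at 33240, 36060 and 36060 in Sham-CLP and 36060, 36060 and 34270 in Burn-CLP.

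**Figure D1:**
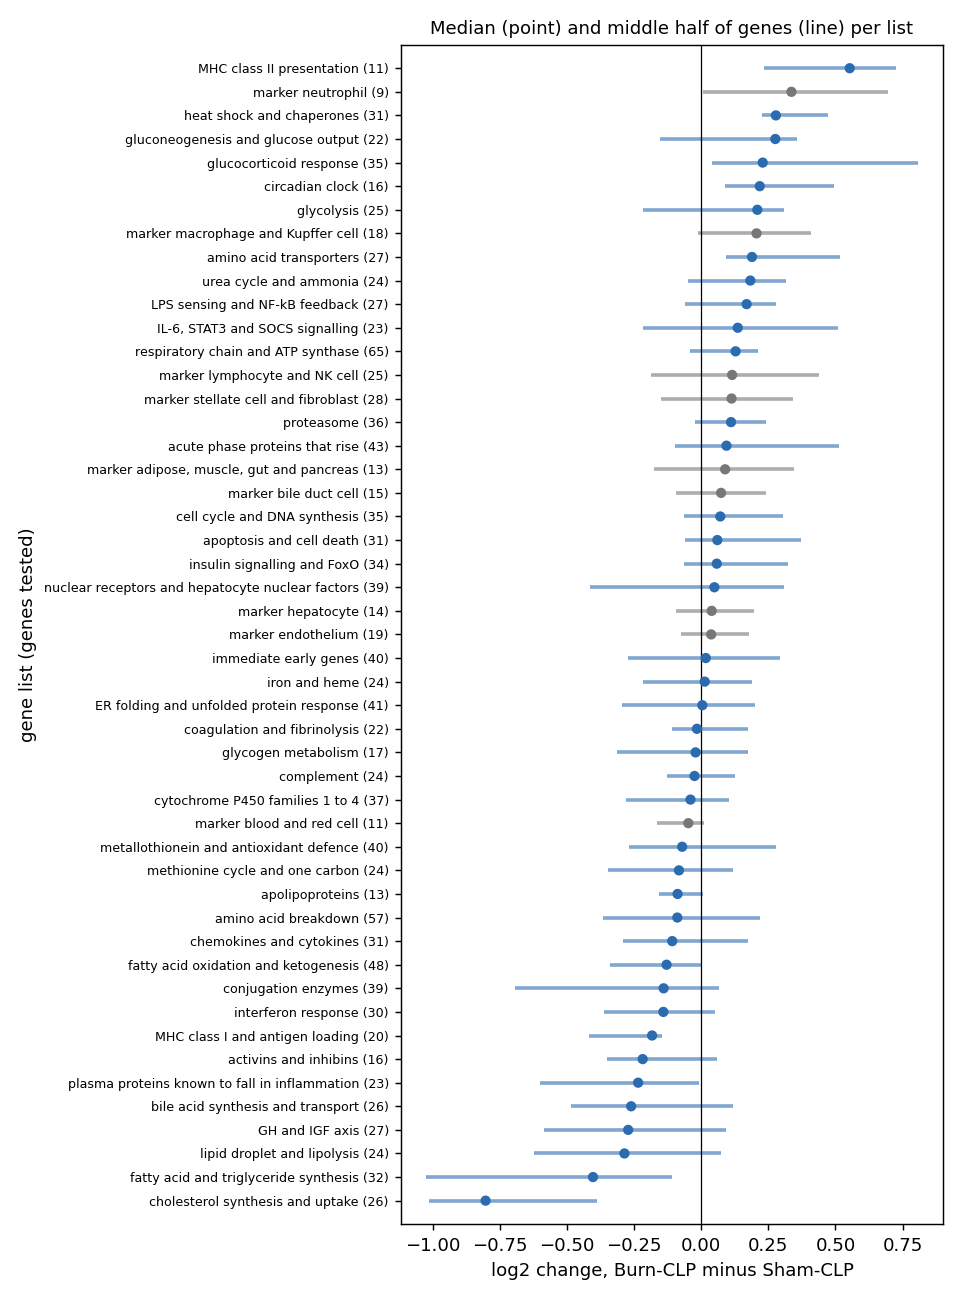
Median log2 difference, Burn-CLP minus Sham-CLP, over the tested genes of each list (points; grey for marker lists of single cell types), with lines from the lower to the upper quartile of the genes and the number of genes tested in brackets. Cholesterol synthesis and uptake lay lowest at -0.80 and MHC class II presentation highest at 0.55, against 0.02 over all 9050 genes.

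Genes of cholesterol synthesis were lower in Burn-CLP than in Sham-CLP from the first to the last steps of the pathway. Of 26 tested genes of this list 22 were lower and 4 higher, with a median difference of -0.80 against 0.02 over all genes. At the unadjusted threshold 19 were lower and 0 higher (73.1% lower, against 6.64% of all genes), and in 20 (76.9%, against 9.89%) every Burn-CLP array was below every Sham-CLP array. The list's median stayed between -0.64, without Burn-CLP 2, and -0.91, without Burn-CLP 3, when any single array was left out. Taken per array, the median over the genes relative to their Sham-CLP mean was -0.71, -1.14 and -0.51 in Burn-CLP 1 to 3, and 0.02, 0.06 and -0.09 in Sham-CLP 1 to 3. The Sham-Sham arrays, which took no part in the main fit, stood at -1.13, -1.17 and -0.29.

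The first steps join acetyl units into mevalonate and activate it with phosphate. Acat2, the cytosolic acetoacetyl-CoA thiolase gene, read 1640, 1588 and 1183 in Sham-CLP 1 to 3 and 473, 314 and 890.1 in Burn-CLP 1 to 3, a difference of -1.51 ± 0.36. For the mevalonate kinase gene Mvk the signals were 899, 882 and 601 in Sham-CLP 1 to 3 and 451, 349 and 554 in Burn-CLP 1 to 3 (-0.82 ± 0.24), and its second probe set differed by -0.49. Pmvk, the phosphomevalonate kinase gene, read 1167, 975 and 980.3 in Sham-CLP 1 to 3 and 479, 529 and 553 in Burn-CLP 1 to 3 (-0.997 ± 0.16, adjusted p = 0.13). Pmvk was the member with the smallest p and lay within a narrow range in both groups, so that all 3 Burn-CLP arrays were at about the same lower level. The mevalonate decarboxylase gene Mvd differed by -0.79 ± 0.22.

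The next enzymes build isoprenoid chains. Idi1, the isopentenyl diphosphate isomerase gene, read 3552, 3608 and 2513 in Sham-CLP 1 to 3 and 1617, 857 and 1951 in Burn-CLP 1 to 3 (-1.19 ± 0.32). Fdps, the farnesyl diphosphate synthase gene, read 10380, 11350 and 10550 in Sham-CLP 1 to 3 and 5888, 4711 and 6248 in Burn-CLP 1 to 3 (-0.95 ± 0.17, adjusted p = 0.165). In Idi1 the array Burn-CLP 2 was far below the other Burn-CLP arrays, whereas the Fdps signals lay close together. Fdft1, the squalene synthase gene, differed by -0.60 ± 0.24.

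Squalene is then oxidised, closed into a ring and trimmed to cholesterol. The squalene epoxidase gene Sqle read 2799, 2916 and 1616 in Sham-CLP 1 to 3 and 1277, 603 and 1380 in Burn-CLP 1 to 3 (-1.21 ± 0.37). Lss, the lanosterol synthase gene, differed by -1.10 ± 0.33, and its second probe set differed by -2.36. Sham-CLP 3 was below the other Sham-CLP arrays in Sqle, Lss, Idi1, Acat2 and Mvk, and still above every Burn-CLP array. Of the sterol-trimming enzymes, Nsdhl (a sterol dehydrogenase that removes the C4 methyl groups) had the largest difference of the list, with 3326, 2855 and 3564 in Sham-CLP 1 to 3 and 941, 595 and 1735 in Burn-CLP 1 to 3 (-1.71 ± 0.36, 3.27-fold lower). Tm7sf2, a sterol C14 reductase gene, read 5311, 5579 and 5888 in Sham-CLP 1 to 3 and 1724, 2481 and 2878 in Burn-CLP 1 to 3 (-1.28 ± 0.21, adjusted p = 0.155). Dhcr7, the reductase gene of the last step, read 3320, 3374 and 3429 in Sham-CLP 1 to 3 and 2018, 1713 and 2063 in Burn-CLP 1 to 3 (-0.81 ± 0.15, adjusted p = 0.171). Its Sham-CLP arrays were nearly equal, so the groups were clearly apart although the difference is smaller than that of Nsdhl. Msmo1 (-1.02 ± 0.26), Cyp51 (-0.80 ± 0.20), Hsd17b7 (-0.83 ± 0.25), Sc5d (-0.77 ± 0.21) and Ebp (-0.66 ± 0.14), all enzymes between lanosterol and cholesterol, were lower with groups apart as well.

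Most regulators and transport genes of the list did not share this size of difference. Srebf2, the gene of SREBP-2 itself, read 1634, 1749 and 1264 in Sham-CLP 1 to 3 and 1248, 1128 and 1593 in Burn-CLP 1 to 3 (-0.23 ± 0.20), with overlapping groups. Scap, whose protein escorts SREBP out of the endoplasmic reticulum, differed by -0.58 ± 0.24 with groups apart, about as much as Fdft1 (-0.60). Insig1 and Insig2, whose proteins hold SREBP back, differed by 0.33 ± 0.32 and 0.36 ± 0.28, both with overlapping groups. Insig2 read 7239, 5994 and 3288 in Burn-CLP against 3935, 4173 and 4138 in Sham-CLP, so Burn-CLP 3 was below all Sham-CLP arrays while the other Burn-CLP arrays were above them. The receptor genes Lrp1, a lipoprotein remnant receptor, and Scarb1, the HDL receptor, differed by -0.33 ± 0.16 (groups apart) and -0.09 ± 0.22 (overlapping). Soat1, which esterifies cholesterol, read 77.8, 91.7 and 66.1 in Sham-CLP 1 to 3 and 57.5, 578 and 95.3 in Burn-CLP 1 to 3 (0.96 ± 0.73), a difference carried by Burn-CLP 2 (-0.0101 without that array), while the other arrays were at or just above the limit. The retinol dehydrogenase gene Rdh11 (-0.87 ± 0.25) was lower with groups apart, and the ferredoxin gene Fdx1 (0.12 ± 0.17) was not.

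**Figure D2:**
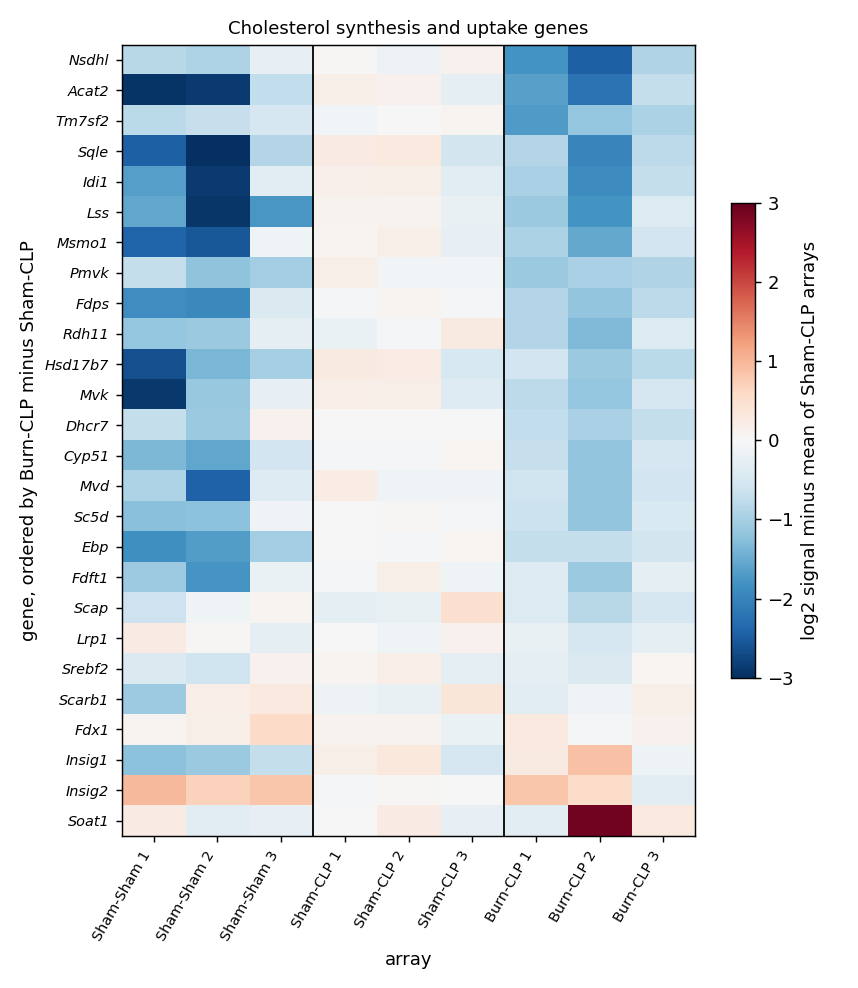
Log2 signal of the 26 tested cholesterol genes (rows, ordered by the Burn-CLP minus Sham-CLP difference) on the 9 arrays (columns), each relative to the gene's mean over the 3 Sham-CLP arrays; blue is lower, red is higher and colours stop at 3 in either direction. The 20 genes that were lower with groups apart are blue in all 3 Burn-CLP columns, and the median over the genes is -0.71, -1.14 and -0.51 in Burn-CLP 1 to 3 and -1.13 and -1.17 in Sham-Sham 1 and 2.

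Promoters of sterol genes are known to hold CCAAT boxes, bound by the factor NF-Y beside SREBP-2. Because these genes were lower together, the 250 bases before each RefSeq gene start (GRCr8 assembly) were searched for CCAAT on either strand, which is CCAAT or ATTGG as printed. Of the 26 genes 22 had a promoter in the table and 16 of these held a box. Of the 17 that were lower with groups apart, 12 held at least 1 box (70.6%) and 7 held at least 2. Of the other 5 matched members, which were not lower with groups apart, 4 held a box as well (Insig1, Insig2, Soat1 and Srebf2). Of all 33469 promoters 34.0% held a box and 9.42% held 2 or more. The promoters of the 4 matched members with the smallest p in the comparison are shown 5′ to 3′ on the gene's strand, with each box in capitals. They are Tm7sf2 (chr1:212789542-212789791, minus strand), Fdps (chr2:176804817-176805066, minus strand), Dhcr7 (chr1:208444184-208444433, plus strand) and Nsdhl (chrX:155817110-155817359, plus strand).
Tm7sf2: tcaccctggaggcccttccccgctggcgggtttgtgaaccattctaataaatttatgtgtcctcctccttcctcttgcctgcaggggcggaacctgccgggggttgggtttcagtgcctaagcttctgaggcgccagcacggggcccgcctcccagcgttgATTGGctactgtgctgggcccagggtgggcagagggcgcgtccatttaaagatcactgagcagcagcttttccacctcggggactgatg
Fdps: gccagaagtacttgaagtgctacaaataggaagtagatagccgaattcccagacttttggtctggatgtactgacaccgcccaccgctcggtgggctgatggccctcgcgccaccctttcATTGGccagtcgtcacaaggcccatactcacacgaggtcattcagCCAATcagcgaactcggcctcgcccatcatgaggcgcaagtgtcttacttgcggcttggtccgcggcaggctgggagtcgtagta
Dhcr7: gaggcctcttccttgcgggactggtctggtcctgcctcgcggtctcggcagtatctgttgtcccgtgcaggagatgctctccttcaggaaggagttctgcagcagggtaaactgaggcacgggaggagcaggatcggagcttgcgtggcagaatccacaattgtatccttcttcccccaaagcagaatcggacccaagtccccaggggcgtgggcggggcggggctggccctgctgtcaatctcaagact
Nsdhl: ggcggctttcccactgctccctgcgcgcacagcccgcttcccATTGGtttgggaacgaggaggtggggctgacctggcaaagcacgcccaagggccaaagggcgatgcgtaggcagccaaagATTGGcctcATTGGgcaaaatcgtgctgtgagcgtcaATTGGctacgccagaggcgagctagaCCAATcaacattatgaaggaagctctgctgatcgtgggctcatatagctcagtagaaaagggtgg
Tm7sf2 has 1 box, whose first base lies 89 bases before the start. Fdps has 2, at 130 and 85 bases before it. Nsdhl, the member with the largest difference, has 5, at 208, 128, 119, 91 and 65 bases. Dhcr7 has none of these letters in this window. A match is a description of the sequence and not a measured binding site.

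Fatty acid and triglyceride synthesis was lower in Burn-CLP in the same direction, with a median of -0.40 over 32 genes. At the unadjusted threshold 12 genes (37.5%) were lower and 2 (6.25%) higher, against 6.64% and 5.73% of all genes. The groups were apart in 14 lower and 4 higher genes (43.8% and 12.5%, against 9.89% and 10.2%). Leaving out Burn-CLP 2 gave a median of -0.29, and leaving out Burn-CLP 3 one of -0.55. Per array it stood at -0.43, -0.75 and -0.18 in Burn-CLP 1 to 3, against 0.01 to 0.02 in Sham-CLP, so Burn-CLP 3 was the array nearest to Sham-CLP here too. The Sham-Sham arrays stood at -0.17, -0.21 and -0.14, below Sham-CLP as well.

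Acly, which makes cytosolic acetyl-CoA from citrate, read 3293, 3231 and 2470 in Sham-CLP 1 to 3 and 1168, 759 and 1839 in Burn-CLP 1 to 3 (-1.34 ± 0.32). Acss2, which makes it from acetate, read 4783, 4655 and 4397 in Sham-CLP 1 to 3 and 1613, 2250 and 3025 in Burn-CLP 1 to 3 (-1.05 ± 0.24). Fasn, the fatty acid synthase gene, read 1553, 1693 and 1675 in Sham-CLP 1 to 3 and 921, 229 and 729.6 in Burn-CLP 1 to 3 (-1.61 ± 0.47), and its second probe set differed by -0.71. Burn-CLP 2 was the lowest array of Acly and Fasn, while Burn-CLP 1 was the lowest of Acss2. Acaca, the acetyl-CoA carboxylase gene that commits carbon to fat, differed by only -0.40 ± 0.17, and its second probe set by -0.12. The genes that lengthen and desaturate fatty acids were lower, with -1.29 ± 0.26 for the elongase gene Elovl5 and -1.76 ± 0.47 for the desaturase gene Fads2. Elovl5 read 4711, 4525 and 7420 in Sham-CLP 1 to 3 and 2836, 1747 and 2163 in Burn-CLP 1 to 3. Srebf1, the gene of SREBP-1, read 1454, 1390 and 1687 in Sham-CLP 1 to 3 and 504, 599 and 1076 in Burn-CLP 1 to 3 (-1.13 ± 0.28), in contrast to Srebf2. Acsl3 and Acsl5, which activate fatty acids, differed by -0.998 ± 0.24 and -0.61 ± 0.18. Mlxipl, the gene of the carbohydrate-responsive factor ChREBP, differed by -0.41 ± 0.17.

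The exceptions were genes of later steps. Lpin1 encodes lipin 1, a phosphatidate phosphatase of triglyceride synthesis that also acts as a transcriptional coactivator. It read 2698, 2269 and 1211 in Sham-CLP 1 to 3 and 6303, 8666 and 3457 in Burn-CLP 1 to 3 (1.56 ± 0.40, 2.94-fold higher). Every Burn-CLP array was above every Sham-CLP array, and Sham-CLP 3 and Burn-CLP 3 were the lowest of their groups. The Sham-Sham arrays read 949.7, 864 and 904. Agpat3, an acyltransferase gene, differed by 0.86 ± 0.22.

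Genes of the lipid droplet and of lipolysis had a median of -0.29 over 24 genes. At the unadjusted threshold 7 were lower and 1 higher (29.2% and 4.17%, against 6.64% and 5.73% of all genes). Leaving out Burn-CLP 1 gave a median of -0.48, and leaving out Burn-CLP 2 one of -0.14. G0s2, an inhibitor of the triglyceride lipase ATGL, had the largest difference of all tested probe sets with a symbol. It read 2352, 1867 and 2028 in Sham-CLP 1 to 3 and 10.6, 12.1 and 704 in Burn-CLP 1 to 3, so that Burn-CLP 1 and 2 lay at the limit and Burn-CLP 3 was below every Sham-CLP array. The log2 difference of -3.89 ± 0.86 uses the limit for those 2 arrays and so understates the change in signal. Pnpla2, which encodes ATGL itself, read 1392, 1470 and 929 in Sham-CLP 1 to 3 and 3602, 4666 and 1408 in Burn-CLP 1 to 3 (1.21 ± 0.43), and here the groups overlapped through Burn-CLP 3. The droplet coat genes Plin2 and Plin3 differed by -1.22 ± 0.40 and -0.57 ± 0.19 with groups apart. Angptl8, which encodes an inhibitor of lipoprotein lipase, read 323, 251 and 208 in Sham-CLP 1 to 3 and 9.97, 56.7 and 187 in Burn-CLP 1 to 3, with 2 Burn-CLP arrays at the limit (-1.51 ± 0.43). Lipc, the hepatic lipase gene, read 2172, 3236 and 4676 in Sham-CLP 1 to 3 and 1561, 1372 and 1969 in Burn-CLP 1 to 3 (-0.99 ± 0.29).

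Fatty acid oxidation and ketone body genes had a median of -0.13 over 48 genes, with 5 lower and 1 higher at the unadjusted threshold (10.4% and 2.08%). The median ran from -0.22 without Burn-CLP 1 to -0.02 without Burn-CLP 2, and the deposited scaling had 11 lower and 2 higher. Bdh1, the 3-hydroxybutyrate dehydrogenase gene of the last step of ketone body synthesis, read 913, 1126 and 2613 in Sham-CLP 1 to 3 and 143, 18.0 and 1154 in Burn-CLP 1 to 3 (-2.68 ± 0.98), with 1 Burn-CLP array at the limit and Burn-CLP 3 inside the Sham-CLP range. The microsomal omega-hydroxylase gene Cyp4a8 differed by -1.47 ± 0.48, also with overlap. Cpt1a, the gatekeeper of fatty acid entry into mitochondria, differed by 0.60 ± 0.22.

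**Figure D3:**
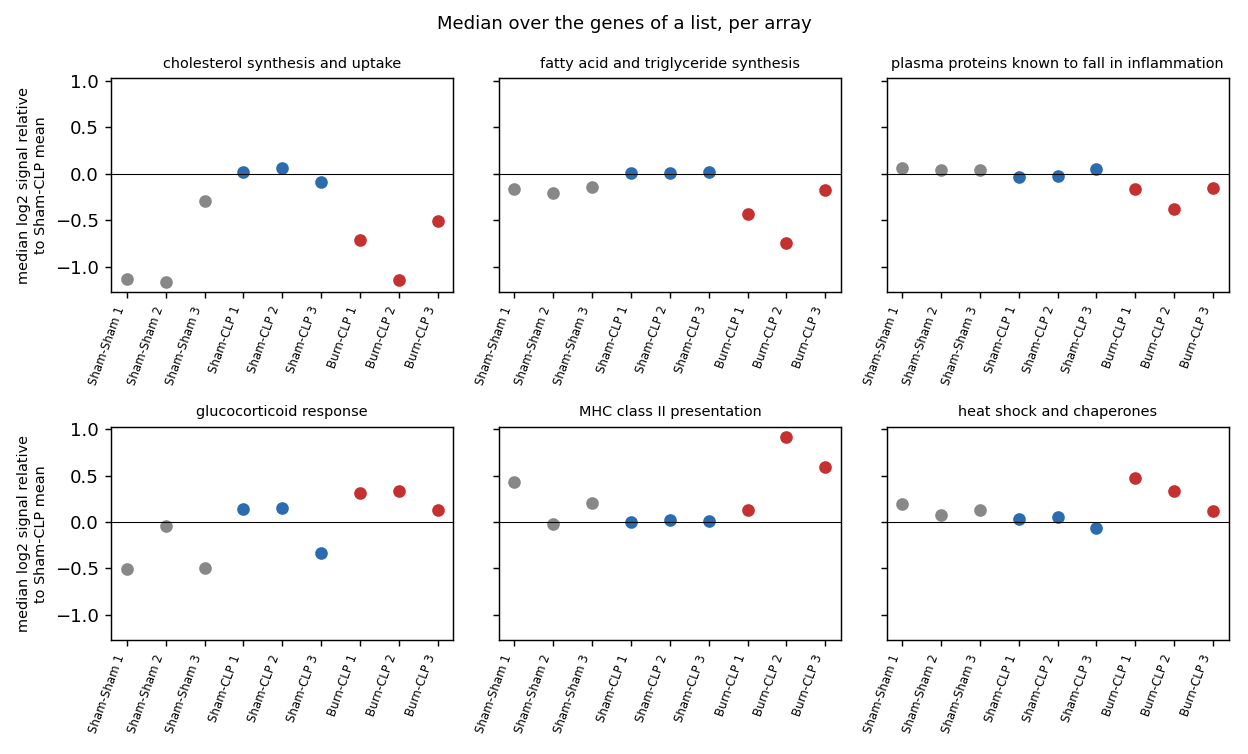
Median over the tested genes of 6 lists on each of the 9 arrays, as log2 signal relative to each gene's mean in Sham-CLP (grey Sham-Sham, blue Sham-CLP, red Burn-CLP). Burn-CLP 1 to 3 lie at -0.71, -1.14 and -0.51 for cholesterol synthesis and uptake and at 0.47, 0.33 and 0.12 for heat shock and chaperones, in each case outside the Sham-CLP range.

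The growth hormone axis sets body growth through hepatic IGF-1 and its carrier proteins. Its list had a median of -0.27 over 27 genes. At the unadjusted threshold 6 were lower and 3 higher (22.2% and 11.1%, against 6.64% and 5.73% of all genes). The median was -0.10 without Sham-CLP 3 and -0.11 without Burn-CLP 3. Ghr, the growth hormone receptor gene, read 1836, 1960 and 2651 in Sham-CLP 1 to 3 and 660.2, 659 and 1732 in Burn-CLP 1 to 3 (-1.22 ± 0.38). Igfals, whose product stabilises IGF-1 in the circulation, read 651, 799 and 1529 in Sham-CLP 1 to 3 and 24.2, 12.5 and 351 in Burn-CLP 1 to 3. Burn-CLP 1 and 2 were at the limit and Burn-CLP 3 was below the lowest Sham-CLP array, giving -3.06 ± 0.67 with those 2 arrays at the limit. Igf1 itself read 9670, 8355 and 12260 in Sham-CLP 1 to 3 and 6885, 6749 and 8617 in Burn-CLP 1 to 3 (-0.44 ± 0.20), with overlap, and its second probe set differed by -0.59. Igfbp3, the main carrier of IGF-1, differed by -0.59 ± 0.22.

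The binding proteins that restrain IGF-1 were higher. Igfbp2 read 1543, 1513 and 2779 in Sham-CLP 1 to 3 and 15200, 9910 and 3534 in Burn-CLP 1 to 3 (2.12 ± 0.52, 4.35-fold higher), and Burn-CLP 3 was far below the other Burn-CLP arrays. Igfbp1, which insulin represses and glucocorticoids induce, read 12780, 11560 and 4383 in Sham-CLP 1 to 3 and 20950, 29560 and 14930 in Burn-CLP 1 to 3 (1.28 ± 0.43). Cyp2c11, the cytochrome P450 of the male growth hormone pattern, read 4986, 5507 and 3003 in Sham-CLP 1 to 3 and 809, 361 and 3033 in Burn-CLP 1 to 3 (-2.18 ± 0.69), and there Burn-CLP 3 overlapped with Sham-CLP. Obp3, a secreted lipocalin gene, differed by -0.78 ± 0.18 (its second probe set by -0.32). Without Burn-CLP 3 the differences of Ghr, Igfals, Igfbp2 and Cyp2c11 were -1.69, -3.93, 2.73 and -3.02, with limma's adjusted p under 0.05 for each. Burn-CLP 3 is the Burn-CLP array nearest to Sham-CLP, so leaving it out widens such differences by construction, and these p-values support nothing.

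Plasma proteins known to fall in inflammation had a median of -0.24 over 23 genes. At the unadjusted threshold 6 (26.1%, against 6.64% of all genes) were lower and 0 higher, and 9 (39.1%, against 9.89%) were lower with groups apart. With the deposited scaling 13 were lower at that threshold and the median was -0.45. Serpina6, the gene of corticosteroid-binding globulin that carries glucocorticoids in blood, read 2248, 2721 and 9470 in Sham-CLP 1 to 3 and 423, 403 and 1757 in Burn-CLP 1 to 3 (-2.53 ± 0.70). Its Sham-CLP 3 and Burn-CLP 3 arrays were well above the others of their groups, and the groups did not overlap. Mbl2, a mannose-binding lectin of complement, read 5423, 6110 and 7434 in Sham-CLP 1 to 3 and 4272, 3312 and 3691 in Burn-CLP 1 to 3 (-0.75 ± 0.18). Afm, a vitamin E carrier gene, differed by -0.86 ± 0.27. Among the most abundant members, the transthyretin gene Ttr read 25820, 25110 and 25430 in Sham-CLP 1 to 3 and 22660, 18880 and 22660 in Burn-CLP 1 to 3 (-0.26 ± 0.15) and the apolipoprotein A-I gene Apoa1 23700, 24960 and 24600 in Sham-CLP 1 to 3 and 22970, 18740 and 23200 in Burn-CLP 1 to 3 (-0.18 ± 0.16), both with every Burn-CLP array below every Sham-CLP array. Alb gave 0.01 ± 0.14, but its probe set held the top normalized value, 36060, on 4 of the 6 arrays, which quantile normalization makes equal on all arrays, so a difference near 0 is set by the scale. Its second probe set differed by -0.23, and with the deposited scaling the Alb difference was -0.363.

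The acute phase proteins that rise in inflammation were mixed. Of 43 genes 8 (18.6%) were higher and 0 lower at the unadjusted threshold, and the median was 0.09. Its direction depends on the scaling, since with the deposited scaling the median was -0.17, or -0.27 relative to all genes, with 6 higher and 7 lower. Pla2g2a, a secreted phospholipase A2 that kills Gram-positive bacteria, read 1227, 1371 and 1431 in Sham-CLP 1 to 3 and 2375, 3417 and 4054 in Burn-CLP 1 to 3 (1.26 ± 0.22, adjusted p = 0.165), and the Sham-Sham arrays read 138, 70.7 and 163. Lbp, which presents bacterial lipopolysaccharide to its receptor, read 7526, 7999 and 6735 in Sham-CLP 1 to 3 and 8998, 13490 and 12070 in Burn-CLP 1 to 3 (0.62 ± 0.19). The metallothionein gene Mt2A and the cathepsin gene Ctsl differed by 0.57 ± 0.15 and 0.51 ± 0.14. By contrast, genes of classic acute phase proteins of the rat differed little between the groups. A2m, the gene of alpha-2-macroglobulin, read 15460, 18370 and 9506 in Sham-CLP 1 to 3 and 13550, 17640 and 15310 in Burn-CLP 1 to 3 (0.15 ± 0.26), and the lipocalin 2 gene Lcn2 read 20070, 21430 and 12120 in Sham-CLP 1 to 3 and 14500, 18170 and 20070 in Burn-CLP 1 to 3 (0.01 ± 0.25). For both genes the sign of the difference turned under other settings. Serpina1, the alpha-1-antitrypsin gene, differed by -0.06 ± 0.14.

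Signalling genes of this response included higher and lower members. In the IL-6, STAT3 and SOCS list 6 of 23 genes were higher (26.1%) and 3 lower (13%) at the unadjusted threshold, against 5.73% and 6.64% of all genes. The median was 0.14, and 0.30 with the deposited scaling. Lepr, the leptin receptor gene, read 233, 215 and 278 in Sham-CLP 1 to 3 and 447, 605 and 507 in Burn-CLP 1 to 3 (1.10 ± 0.18, adjusted p = 0.155). A second Lepr probe set differed by 1.67, while 3 others differed by -0.30, -0.07 and -0.11. Il1r1, the interleukin-1 receptor gene, differed by 0.96 ± 0.35, Il6st, the shared receptor chain of the IL-6 family, by 0.51 ± 0.18 (its other probe sets by 0.14 and 0.19), and Socs3, the feedback inhibitor, by 0.43 ± 0.14. Of the C/EBP factors, Cebpd, which inflammation induces, differed by 0.70 ± 0.22 (its other probe sets by 0.40 and 0.13), and Cebpa, which maintains hepatocyte functions, read 892, 1165 and 1094 in Sham-CLP 1 to 3 and 599.8, 524 and 606 in Burn-CLP 1 to 3 (-0.86 ± 0.17). Il6 was lower by at least 1.37-fold, since all 3 Burn-CLP arrays were at the limit, and its Sham-CLP signals of 78.6, 93.4 and 86.1 were barely above it.

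Genes that glucocorticoids induce were higher in the majority. Of 35 genes 27 were higher, and the median was 0.23. At the unadjusted threshold 8 were higher and 2 lower (22.9% and 5.71%), and the groups were apart in 10 higher genes (28.6%). The members with the smallest p were Sds, Got1, Lpin1 and Mt2A, which other lists count too. Relative to all genes the median was 0.02 with the deposited scaling and 0.11 when Sham-CLP 3 was left out. In Sham-CLP 3 the list's median lay at -0.33 relative to the Sham-CLP mean, against 0.14 and 0.15 in Sham-CLP 1 and 2, and the Burn-CLP arrays stood at 0.31, 0.33 and 0.13. Klf15, a glucocorticoid-induced factor that promotes amino acid breakdown, read 3696, 3702 and 1766 in Sham-CLP 1 to 3 and 5008, 7091 and 3994 in Burn-CLP 1 to 3 (0.85 ± 0.34).

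Sds, the serine dehydratase gene that turns serine into pyruvate for glucose synthesis, had the smallest p of the amino acid enzymes. It read 4401, 4287 and 3081 in Sham-CLP 1 to 3 and 12870, 18500 and 10640 in Burn-CLP 1 to 3 (1.82 ± 0.25, 3.52-fold higher, adjusted p = 0.107), and the Sham-Sham arrays read 2565, 3546 and 818. Every Burn-CLP array was far above the highest Sham-CLP array. The transaminase genes Got1 and Gpt, which pass amino groups between aspartate or alanine and glutamate, read 8998, 10150 and 6439 in Sham-CLP 1 to 3 and 17160, 18330 and 14790 in Burn-CLP 1 to 3 (0.99 ± 0.21) and 2500, 2323 and 719.9 in Sham-CLP 1 to 3 and 4814, 3785 and 2908 in Burn-CLP 1 to 3 (1.22 ± 0.47). Tat, the tyrosine aminotransferase gene and a classic glucocorticoid target, read 8296, 9793 and 1989 in Sham-CLP 1 to 3 and 12120, 14550 and 10290 in Burn-CLP 1 to 3 (1.16 ± 0.56). Sham-CLP 3 was the lowest array of Gpt and Tat by a wide margin, and no Burn-CLP array of these 4 genes fell into the Sham-CLP range.

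Breakdown of amino acids included higher and lower genes. Over 57 genes the median was -0.09, with 6 higher and 6 lower at the unadjusted threshold (10.5% each). With groups apart 8 were higher and 12 lower (14% and 21.1%). This balance holds for the setting used here, as the deposited scaling gave 5 higher and 11 lower and a median of -0.18. Acmsd, which diverts tryptophan breakdown away from NAD synthesis, read 679, 701 and 965 in Sham-CLP 1 to 3 and 2342, 3935 and 1547 in Burn-CLP 1 to 3 (1.65 ± 0.33). Among the lower members, Dmgdh, of choline breakdown, read 2432, 2219 and 1490 in Sham-CLP 1 to 3 and 1086, 1013 and 1178 in Burn-CLP 1 to 3 (-0.88 ± 0.21). Cth, which makes cysteine from methionine, differed by -0.83 ± 0.28, Csad, of taurine synthesis, by -1.24 ± 0.41, and Gamt, of creatine synthesis, by -0.74 ± 0.18. The methionine cycle and one carbon list, which holds these 3 genes, had 4 of 24 genes lower and 0 higher at the unadjusted threshold. The lower share was 16.7%, against 6.64% of all genes.

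Transport of amino acids and their nitrogen was higher in some genes. In the transporter list 4 of 27 genes (14.8%) were higher and 0 lower at the unadjusted threshold, with a median of 0.19. Slc38a4, a neutral amino acid transporter of the hepatocyte, read 6749, 7376 and 6192 in Sham-CLP 1 to 3 and 9703, 10380 and 9276 in Burn-CLP 1 to 3 (0.53 ± 0.15). Slc16a10, for aromatic amino acids, read 314, 373 and 289 in Sham-CLP 1 to 3 and 411, 1070 and 561 in Burn-CLP 1 to 3 (0.96 ± 0.33), and the glutamate transporter gene Slc1a2 329.9, 336 and 169.9 in Sham-CLP 1 to 3 and 412, 663 and 515 in Burn-CLP 1 to 3 (0.97 ± 0.31). A second Slc1a2 probe set differed by 0.12. Slc7a2, for arginine and lysine, differed by 0.72 ± 0.25 with overlap. The urea cycle and ammonia list had a median of 0.18. At the unadjusted threshold 3 of its 24 genes (12.5%, against 5.73% of all genes) were higher and 0 lower. They were Asl, the argininosuccinate lyase gene, which read 5227, 5958 and 4643 in Sham-CLP 1 to 3 and 10040, 10970 and 6414 in Burn-CLP 1 to 3 (0.76 ± 0.23), the glutaminase gene Gls2 (0.42 ± 0.15) and Odc1, of polyamine synthesis (0.73 ± 0.29).

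Glucose output genes had a median of 0.28 over 22 genes, with 4 higher (18.2%) and 1 lower (4.55%) at the unadjusted threshold. The higher ones were Sds, Got1, Gpt and the malate dehydrogenase gene Mdh1 (0.59 ± 0.18), and the lower one was the nuclear receptor gene Nr4a1 (-0.96 ± 0.38). Glycolysis genes went both ways, with 3 of 25 (12%) higher and 4 (16%) lower, against 5.73% and 6.64% of all genes. Aldoa, the aldolase isoform of muscle and other tissues, read 1927, 1932 and 1924 in Sham-CLP 1 to 3 and 4666, 5392 and 3176 in Burn-CLP 1 to 3 (1.16 ± 0.21, adjusted p = 0.171). Its Sham-CLP and Sham-Sham arrays lay between 1894 and 1961, and the lowest Burn-CLP array read 3176. Eno1, an enolase gene, differed by 0.56 ± 0.16. Pklr, the liver pyruvate kinase gene that ChREBP drives, read 615, 679.7 and 815 in Sham-CLP 1 to 3 and 289, 234 and 578 in Burn-CLP 1 to 3 (-1.04 ± 0.33), and Pdk1, which inhibits pyruvate dehydrogenase, differed by -0.81 ± 0.29 with overlap.

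In glycogen metabolism 3 of 17 genes (17.6%, against 6.64% of all genes) were lower and 0 higher at the unadjusted threshold. They were the branching enzyme gene Gbe1, the phosphoglucomutase gene Pgm1 (-0.87 ± 0.26) and the phosphorylase kinase subunit gene Phkb (-0.94 ± 0.28). Gbe1 read 3759, 3629 and 3727 in Sham-CLP 1 to 3 and 2582, 1823 and 2750 in Burn-CLP 1 to 3 (-0.66 ± 0.19). Insulin and FoxO signalling genes had a median of 0.06 over 34 genes. Pik3r1, the regulatory subunit of PI3-kinase, read 476, 639 and 348 in Sham-CLP 1 to 3 and 128, 318 and 166 in Burn-CLP 1 to 3 (-1.32 ± 0.36), while the receptor substrate gene Irs2 (0.87 ± 0.30) and Sesn1, a sestrin gene that restrains mTORC1 (0.95 ± 0.26), were higher. Trib3, an inhibitor of Akt that stress induces, read 89.2, 78.8 and 135 in Sham-CLP 1 to 3 and 377, 394 and 239.7 in Burn-CLP 1 to 3 (1.74 ± 0.27, adjusted p = 0.13), and differences of 0.99 and 2.37 were found with its other probe sets.

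**Figure D4:**
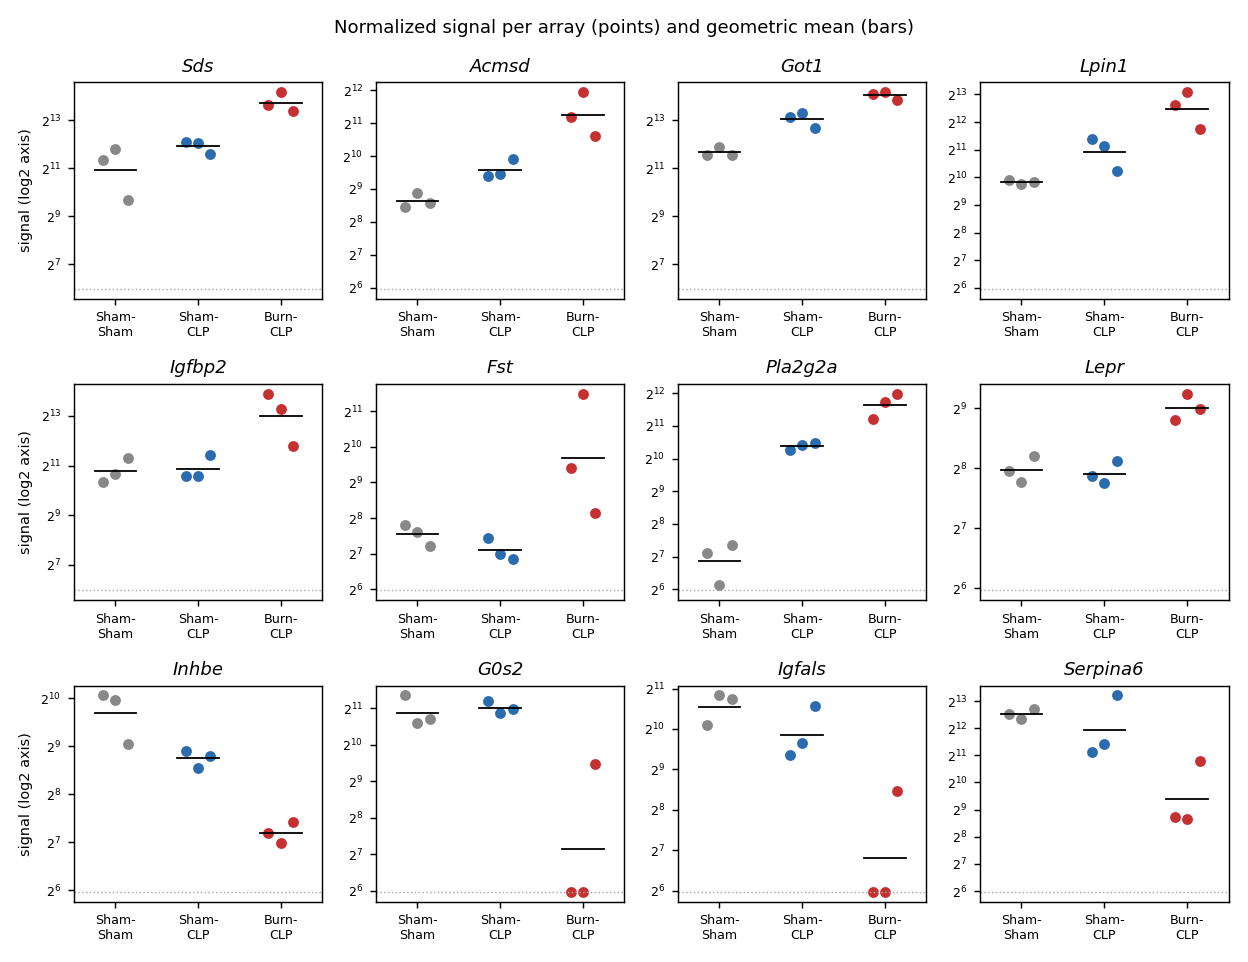
Normalized signal on a log2 axis for 12 genes on each array (points), with the geometric mean of each group (bars) and the lower limit of 62.6 (dotted line, where lower signals were set). Sds, Acmsd, Got1, Lpin1, Igfbp2, Fst, Pla2g2a and Lepr lie higher, and Inhbe, G0s2, Igfals and Serpina6 lower, in all 3 Burn-CLP arrays than in any Sham-CLP array.

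Among activins and their antagonist, the hepatic ligand genes Inhbe and Inhbc were lower and the antagonist gene Fst was higher. Inhbe, the gene of the liver's own inhibin beta E chain, read 479.8, 372 and 443 in Sham-CLP 1 to 3 and 146, 126 and 173 in Burn-CLP 1 to 3 (-1.55 ± 0.18, adjusted p = 0.0618), and the Sham-Sham arrays read 1065, 998 and 527. Inhbc, the beta C chain gene, read 590.2, 674 and 602 in Sham-CLP 1 to 3 and 191, 121 and 528 in Burn-CLP 1 to 3 (-1.43 ± 0.48). Fst, the gene of follistatin, which binds and blocks activin, read 173, 128 and 116 in Sham-CLP 1 to 3 and 674, 2873 and 282 in Burn-CLP 1 to 3 (2.58 ± 0.73), with a wide spread over the Burn-CLP arrays. Its second probe set differed by 2.08 ± 1.01, with 2 Sham-CLP arrays and 1 Burn-CLP array at the limit. Smad7, an inhibitor of TGF-beta signalling, differed by -0.83 ± 0.20. Of the 16 genes of this list 3 (18.8%) were lower and 1 (6.25%) higher at the unadjusted threshold, and the median was -0.22. Of all genes 6.64% were lower and 5.73% higher, so the higher share was near that of all genes.

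Antigen presentation went in opposite directions for MHC class II and class I. Of 11 class II genes 10 were higher, with a median of 0.55. At the unadjusted threshold 3 (27.3%) were higher, and 4 (36.4%) were higher with groups apart. Relative to the genes' Sham-CLP mean the list's median was 0.13, 0.92 and 0.59 in Burn-CLP 1 to 3. It was 0.43, -0.02 and 0.21 in Sham-Sham 1 to 3. RT1-Da, a class II alpha chain gene, read 645, 670 and 662 in Sham-CLP 1 to 3 and 764, 1637 and 1317 in Burn-CLP 1 to 3 (0.84 ± 0.27). Cd74, the invariant chain gene, read 1016, 1008 and 922 in Sham-CLP 1 to 3 and 1129, 1873 and 1910 in Burn-CLP 1 to 3 (0.70 ± 0.23). In Sham-Sham 1 to 3 RT1-Da read 888, 733 and 1570 and Cd74 1848, 1305 and 2342, so both overlapped with Burn-CLP there. RT1-DMa, which loads peptides, read 290, 219 and 280 in Sham-CLP 1 to 3 and 350, 1007 and 506 in Burn-CLP 1 to 3 (1.11 ± 0.36). Burn-CLP 1 was only slightly above Sham-CLP in all 3 genes, and leaving out Burn-CLP 1 gave the list a median of 0.85, leaving out Burn-CLP 2 one of 0.29. Marker genes of the cells that carry class II stood beside this as follows. Of 18 macrophage and Kupffer cell markers 13 were higher, with a median of 0.21. At the unadjusted threshold 1 was higher (Csf1r, 0.76 ± 0.25) and 1 lower (Ccr2, -0.54 ± 0.22), 5.56% each and near the shares of all genes. Their summed signal ran from 21870 to 24220 over the Sham-CLP arrays and from 21850 to 29380 over the Burn-CLP arrays, and their part in the class II difference was not tested.

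Class I and antigen loading genes were lower in 17 of 20, with a median of -0.18. At the unadjusted threshold 4 (20%, against 6.64% of all genes) were lower and 0 higher. At that threshold 0 were lower without Sham-CLP 3 and 1 without Burn-CLP 1, and the median was -0.33 without Burn-CLP 3. With all arrays the 4 were the proteasome activator genes Psme1, with 2427, 2782 and 3156 in Sham-CLP 1 to 3 and 1770, 1310 and 2272 in Burn-CLP 1 to 3 (-0.67 ± 0.23), and Psme2 (-0.56 ± 0.22), the immunoproteasome subunit gene Psmb8 (-0.80 ± 0.31) and the class I gene RT1-N2 (-1.51 ± 0.57). RT1-N2 and Psmb8 overlapped between groups, and RT1-N2 had 1 Burn-CLP array at the limit. The proteasome list, which holds these subunits too, had a median of 0.11 over 36 genes, with the core subunit gene Psma1 at 0.71 ± 0.19. Interferon response genes had a median of -0.14 over 30 genes. At the unadjusted threshold 5 were lower and 2 higher (16.7% and 6.67%, against 6.64% and 5.73% of all genes). The median was -0.02 with the deposited scaling (4 higher and 6 lower) and -0.25 without Sham-CLP 3. Cxcl9, the chemokine that interferon-gamma induces, read 372, 395 and 369.5 in Sham-CLP 1 to 3 and 164, 191 and 227 in Burn-CLP 1 to 3 (-0.98 ± 0.17, adjusted p = 0.165). Mx2 differed by -0.72 ± 0.21 (its second probe set by -0.23) with 1 Burn-CLP array at the limit, while Ifitm3 (0.81 ± 0.23) and Gch1, of tetrahydrobiopterin synthesis (1.06 ± 0.30), were higher with groups apart.

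Among chemokines and cytokines, Cxcl12, which holds leukocytes and progenitors in tissues, had the largest difference. It read 4495, 4775 and 3184 in Sham-CLP 1 to 3 and 839.6, 592 and 1867 in Burn-CLP 1 to 3 (-2.07 ± 0.40), and differences of -1.04 and -1.49 were found with its other probe sets. The alarmin gene Il33 differed by -0.73 ± 0.26. The list of 31 genes held 5 lower and 1 higher at the unadjusted threshold (16.1% and 3.23%, against 6.64% and 5.73% of all genes). Its median was -0.11, but 0.04 with the deposited scaling, or -0.06 relative to all genes there. Complement genes had a median of -0.03 over 24 genes, which was 0.08 without Burn-CLP 1, 0.01 without Sham-CLP 3 and 0.005 without Sham-CLP 2, but -0.21 with the deposited scaling. At the unadjusted threshold 2 complement genes were higher and 3 lower (8.33% and 12.5%). Among the lower were Cd59b, a complement inhibitor, at -0.72 ± 0.29 and Masp1 at -0.53 ± 0.19 (its other probe sets at -0.34 and -0.16).

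Heat shock genes and chaperones of the cytosol and mitochondria were higher in 27 of 31, with a median of 0.28. At the unadjusted threshold 5 (16.1%) were higher and 0 lower, and the groups were apart in 14 higher genes (45.2%, against 10.2% of all genes) and 0 lower ones. The median kept its sign under each alternative setting, between 0.24 and 0.38. Relative to the genes' Sham-CLP mean it was 0.47, 0.33 and 0.12 in Burn-CLP 1 to 3 and 0.19, 0.08 and 0.13 in Sham-Sham 1 to 3. Hspb1, the small heat shock protein gene, read 162, 175 and 88.1 in Sham-CLP 1 to 3 and 352, 315 and 303 in Burn-CLP 1 to 3 (1.25 ± 0.27). Its Sham-Sham arrays read 312, 53.5 and 422. Hspe1, the mitochondrial co-chaperonin gene, read 5320, 5777 and 5361 in Sham-CLP 1 to 3 and 8059, 7772 and 6776 in Burn-CLP 1 to 3 (0.46 ± 0.15). Ahsa1, an activator of HSP90, differed by 0.58 ± 0.18 and Hmox1, the heme oxygenase gene that heat and heme induce, by 0.52 ± 0.26. Chaperones of the endoplasmic reticulum did not share this, since that list had a median of 0.00 over 41 genes. There Pdia4 and Sec61b, of protein folding and import, differed by -0.80 ± 0.20 and -0.74 ± 0.26.

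Respiratory chain and ATP synthase genes lay slightly higher. The median was 0.13 over 65 genes, 3 were higher and 0 lower at the unadjusted threshold (4.62% higher, against the 5.73% of all genes), and 18 were higher with groups apart (27.7%, against 10.2%). Uqcrh and Uqcrfs1, subunits of complex III, differed by 0.43 ± 0.15 and 0.40 ± 0.15. Relative to all genes the median was -0.07 with the deposited scaling, so the direction of this list depends on the scaling.

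**Figure D5:**
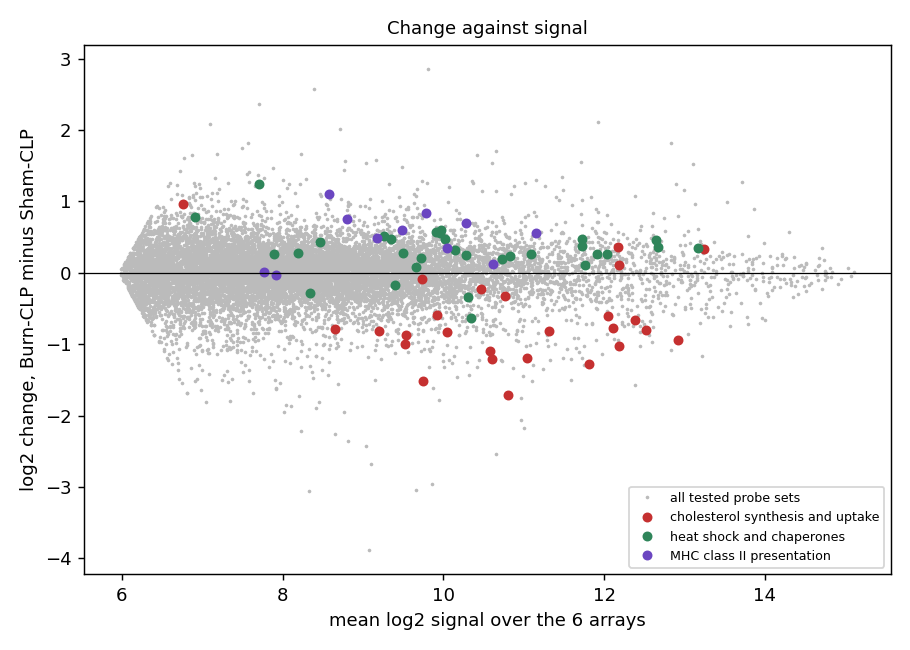
Log2 difference, Burn-CLP minus Sham-CLP, against the mean log2 signal over the 6 arrays for all 12986 tested probe sets (grey), with 3 lists in colour. Cholesterol genes (red) lie mostly below 0 over a wide range of signals, heat shock and chaperone genes (green) mostly between 0 and 0.6, and 10 of the 11 MHC class II genes (purple) above 0.

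Nuclear receptor and hepatocyte nuclear factor genes went both ways. Of 39 genes 4 were higher and 6 lower at the unadjusted threshold (10.3% and 15.4%), while the deposited scaling gave 8 higher and 4 lower. With groups apart 6 were higher and 7 lower (15.4% and 17.9%), and the median was 0.05. Nr1h4, the gene of the bile acid receptor FXR, read 1418, 1232 and 1281 in Sham-CLP 1 to 3 and 526, 556 and 821 in Burn-CLP 1 to 3 (-1.07 ± 0.20, adjusted p = 0.185). Nr0b2, which encodes SHP and is a target of FXR, differed by 1.24 ± 0.52 in the other direction, with overlap. Nr5a2, the gene of LRH-1, differed by 0.90 ± 0.26. Bile acid synthesis and transport genes had a median of -0.26 over 26 genes. At the unadjusted threshold 4 were lower and 3 higher (15.4% and 11.5%, against 6.64% and 5.73% of all genes). Without Burn-CLP 2 the median was -0.03, with 1 lower and 2 higher, and the deposited scaling gave 8 lower and 2 higher. The canalicular exporter gene Abcc2 differed by 0.78 ± 0.29 and the uptake transporter gene Slco2b1 by -0.47 ± 0.19.

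Conjugation enzymes were lower in 28 of 39 genes, with a median of -0.14, 7 lower (17.9%) and 1 higher at the unadjusted threshold. It was -0.34 with 11 lower under the deposited scaling, and -0.35 with 12 lower without Burn-CLP 3. The glutathione transferase gene Gstm7 read 2102, 1896 and 1730 in Sham-CLP 1 to 3 and 592, 479 and 1166 in Burn-CLP 1 to 3 (-1.46 ± 0.32), and the microsomal transferase gene Mgst3 differed by -0.85 ± 0.25. The hydroxysteroid sulfotransferase gene Sult2a2 differed by -1.51 ± 0.32 with 2 Burn-CLP arrays at the limit. The higher one was Sult2b1, a cholesterol sulfotransferase gene, with 39.2, 39.2 and 42.4 in Sham-CLP 1 to 3 and 168, 172 and 239.7 in Burn-CLP 1 to 3. It was higher by at least 3.05-fold, since all 3 Sham-CLP arrays were at the limit (adjusted p = 0.0618). Cytochromes P450 of families 1 to 4 had a median of -0.04 over 37 genes. Besides Cyp2c11 and Cyp4a8, the lower ones included Cyp2t1 (-1.06 ± 0.27) and Cyp4f6 (-0.54 ± 0.17), and the higher ones were Cyp2j3 (0.81 ± 0.25) and Cyp3a9 (1.54 ± 0.50). Members of these families are named as annotated, and signal shared between near-identical members was not separated.

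In heme synthesis, Alas1, the rate-limiting enzyme gene, read 2006, 2285 and 1610 in Sham-CLP 1 to 3 and 6138, 5152 and 1919 in Burn-CLP 1 to 3 (1.01 ± 0.42), with overlap through Burn-CLP 3. The next enzyme gene, Alad, read 1943, 1888 and 2741 in Sham-CLP 1 to 3 and 998, 591 and 1095 in Burn-CLP 1 to 3 (-1.32 ± 0.27), and Ppox, of a late step, differed by -1.05 ± 0.40. Metallothionein and antioxidant genes had 3 higher and 3 lower of 40 at the unadjusted threshold (7.5% each, near the shares of all genes). With groups apart 9 were higher and 5 lower (22.5% and 12.5%). The median was -0.07, which was 0.10 without Burn-CLP 2. Among them Prdx4, a peroxiredoxin of the secretory pathway, differed by -0.93 ± 0.25.

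Genes of apoptosis and cell death and of the cell cycle were higher in part. In the apoptosis and cell death list 6 of 31 genes (19.4%) were higher and 1 lower at the unadjusted threshold. Mcl1, an anti-apoptotic BCL-2 family gene, read 2479, 2299 and 2388 in Sham-CLP 1 to 3 and 4519, 6353 and 3899 in Burn-CLP 1 to 3 (1.01 ± 0.21). Bcl2l1, of the same family, differed by 0.74 ± 0.29 (its other probe sets by -0.05 and 0.90). The mitophagy gene Bnip3 differed by 1.07 ± 0.29 and the caspase gene Casp2 by 0.38 ± 0.15 (its second probe set by -0.10). In the cell cycle list 4 of 35 (11.4%, against 5.73% of all genes) were higher and 0 lower. Stmn1, a microtubule regulator of dividing cells, read 102, 83.0 and 131 in Sham-CLP 1 to 3 and 216, 229 and 307 in Burn-CLP 1 to 3 (1.26 ± 0.22), and Cdk1, the mitotic kinase gene, differed by 0.80 ± 0.20 with 1 Sham-CLP array at the limit. Of the clock genes 4 of 16 (25%) were higher and 1 (6.25%) lower, against 5.73% and 6.64% of all genes. Nr1d2, which encodes REV-ERB beta, differed by 0.76 ± 0.26, Dbp by 0.81 ± 0.30 with 2 Sham-CLP arrays at the limit, and Bhlhe40, which was lower, by -0.80 ± 0.22.

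Several of the genes with the smallest p belong to none of the groups above. Lrrc51, a leucine-rich repeat gene, had the smallest p of all, with 40.7, 74.0 and 32.2 in Sham-CLP 1 to 3 and 202, 207 and 216 in Burn-CLP 1 to 3 (1.65 ± 0.15, adjusted p = 0.0618), and 2 Sham-CLP arrays were at the limit. Trrap, a scaffold of histone acetyltransferase complexes, read 287, 239 and 287 in Sham-CLP 1 to 3 and 530.2, 548 and 573 in Burn-CLP 1 to 3 (1.03 ± 0.15). Its Sham-Sham arrays read 258, 589 and 365, so Sham-Sham 2 was above every Burn-CLP array. Dcn, the gene of the matrix proteoglycan decorin, read 218, 313 and 269.7 in Sham-CLP 1 to 3 and 578, 869 and 728 in Burn-CLP 1 to 3 (1.44 ± 0.21). Tcp11l2 (1.18 ± 0.18), Tmem161b (0.96 ± 0.15) and the exonuclease gene Xrn1 (0.88 ± 0.15, 1 Sham-CLP array at the limit) were also higher. Ints13, an Integrator subunit gene, was higher by at least 2.40-fold in the probe set with the smallest p, but its other probe sets differed by 0.08 and 0.05.

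On the lower side, Ogfr, the opioid growth factor receptor gene, read 248, 242 and 269 in Sham-CLP 1 to 3 and 92.3, 100 and 89.7 in Burn-CLP 1 to 3 (-1.43 ± 0.14, adjusted p = 0.0618). Cyb5r3, an NADH-cytochrome b5 reductase gene that also serves sterol synthesis, read 5680, 6303 and 5927 in Sham-CLP 1 to 3 and 2442, 2565 and 3202 in Burn-CLP 1 to 3 (-1.13 ± 0.17). Ifi27l2b, an interferon-inducible family member, read 6138, 5536 and 4074 in Sham-CLP 1 to 3 and 1805, 1477 and 2299 in Burn-CLP 1 to 3 (-1.50 ± 0.23). In these 3 genes the groups were far apart, and the spread within a group was smallest for Ogfr and widest for Ifi27l2b. Rnf213, Gpr108, Nfe2 and Gucy1b2 differed by -1.81 ± 0.20, -1.37 ± 0.16, -1.54 ± 0.19 and -1.26 ± 0.15, each with 2 Burn-CLP arrays at the limit. Baiap2 and Tmed1 were lower by at least 3.21-fold and 3.21-fold, with all Burn-CLP arrays there, and Sub1 differed by -0.90 ± 0.14. The brighter probe sets of Rnf213, Baiap2 and Sub1 differed by -0.10, by 0.30 and -0.33, and by -0.26, so these 3 genes rest on 1 probe set each.

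Marker lists of the cell types in and around the liver had medians from -0.05 for red cells and platelets to 0.34 for neutrophils. Hepatocyte markers had a median of 0.04 over 14 genes, with 0 past the unadjusted threshold in either direction, and their summed signal ran from 293900 to 307500 over the Sham-CLP arrays and from 303700 to 316200 over the Burn-CLP arrays. Relative to all genes their median was -0.32 with the deposited scaling. Neutrophil markers had a median of 0.34 over 9 tested genes of 14 on the array, with 7 above 0 and 2 below. At the unadjusted threshold 2 (22.2%, against 5.73% of all genes) were higher and 0 lower, and 0 had groups apart. S100a9, a calcium-binding protein of neutrophils, read 161, 196 and 245 in Sham-CLP 1 to 3 and 231, 786 and 659.6 in Burn-CLP 1 to 3 (1.32 ± 0.44), and Alox5ap differed by 0.70 ± 0.26 with 2 Sham-CLP arrays at the limit. S100a8 and Cxcr2 differed by 0.83 ± 0.45 (1 Sham-CLP array at the limit) and 0.34 ± 0.21, both with overlap. The summed signal of the neutrophil markers ran from 13460 to 22510 over the Sham-CLP arrays and from 15680 to 21800 over the Burn-CLP arrays. Most of it was Lcn2, described above with the acute phase genes, which read 615, 635 and 751 in Sham-Sham. The sum therefore follows Lcn2 and cannot show neutrophil content. The neutrophil genes Itgam, Mmp9, Padi4, Np4 and Defa5 were at the limit on at least 4 of the 6 arrays.

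Lymphocyte and natural killer cell markers had 5 higher and 3 lower of 25 (20% and 12%, against 5.73% and 6.64% of all genes). Among them were Cd37 (0.86 ± 0.19, 1 Sham-CLP array at the limit), Lck (0.43 ± 0.17), Cd3e (-0.46 ± 0.18) and Klrg1 (-1.10 ± 0.33). The brightest markers of this list, Cd53 and Cd4, differed by -0.12 ± 0.15 and 0.08 ± 0.20. The summed signal of all markers of this list ran from 4594 to 4655 over the Sham-CLP arrays and from 4541 to 5298 over the Burn-CLP arrays. Endothelial markers had a median of 0.04 over 19 genes, with Kdr at -0.11 ± 0.30, Fcgr2b at 0.04 ± 0.23 and Vwf, the von Willebrand factor gene, at 0.98 ± 0.33 with 1 Sham-CLP array at the limit. Stellate cell and fibroblast markers had a median of 0.11 over 28 genes, with 3 higher (Dcn, Col1a1 at 0.55 ± 0.22 and Vim at 0.51 ± 0.19), while the bright collagen gene Col3a1 and Sparc differed by -0.23 ± 0.23 and 0.06 ± 0.18. Bile duct markers had a median of 0.07 over 15 genes, with Krt19 at 0.66 ± 0.19 and the keratin genes Krt18 and Krt8 at 0.25 ± 0.16 and -0.13 ± 0.16. Markers of red cells and platelets had a median of -0.05 over 11 genes, with the globin genes Hbb and Hba-a3 at -0.15 ± 0.15 and -0.31 ± 0.22. The part of any of these cell types in the results above was not tested.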

How the data were processed

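Rat liver RNA was hybridised to 9 arrays of 15923 probe sets, and the 57 control probe sets were left out. The deposited values are intensity values (linear signal), 1 for each probe set on each array. The authors had scaled the arrays to a common level, as a trimmed mean (2% cut at each end) of 500.14 to 500.17 on all arrays shows. How the signals were computed was not given in the sources used here. Precision is limited by the number of arrays, since arrays have no depth of reads.

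The 6 compared arrays were quantile normalized together, signals under the 20th percentile (62.6) were set to it, and log2 was taken. Probe sets above it on at least 3 arrays were tested with limma 3.58.1 (R 4.3.3; lmFit, eBayes, Benjamini-Hochberg over 12986 probe sets), a procedure also tested on simulated data. With 3 arrays against 3 an exact permutation test cannot go below p = 0.1 (two-sided), so none was run. Sham-Sham arrays were mapped to the same distribution for display only. Where all 3 arrays of a group are at the limit, a fold is a lower bound.

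Symbols came from the platform annotation, updated through RefSeq (12748 probe sets by Entrez identifier, 2 by accession, 33 kept), and probe sets with several symbols (312) or none (2771) were not named. A gene in a list was represented by its brightest tested probe set. Lists were described by counts and medians, without a set test.

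Named genes were the 12 higher and 12 lower genes with the smallest p, up to 4 genes with the smallest p per list of at least 5 tested genes, the 2 brightest of each marker list, and Alb, Ttr and Apoa1. Further members, such as most cholesterol enzymes after the first 4, were chosen after their values were seen. The comparison, its lists and its tests were chosen with earlier results of these data known. Alternatives were the deposited scaling, all 9 arrays in the fit, other limits and filters, eBayes with a trend or robust, a replicate block and leaving out each array.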

Additional observations from a re-analysis of the deposited data

How the results depend on the processing

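Of 218 genes followed, 208 kept the direction of their difference under each alternative setting. Most of them were chosen from these arrays for a small p or after their values were seen. Where groups do not overlap, leaving out 1 array can hardly turn the sign. The count was thus largely fixed by the choice of genes and is no support for them. The count of probe sets passing was 0 in the fit described, 1 with the deposited scaling (Lrrc51), 2 with all 9 arrays in the fit (Lrrc51 and Sult2b1) and 5 with no filter on low values. It was 0 with a limit at the 10th percentile, with log2 of the signal plus 16, with probe sets above the limit on all 6 arrays, and with eBayes with a trend or robust. Leaving out 1 array gave 0 to 73, the 73 being without Burn-CLP 3, where 32 of the genes followed passed.

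Whether the groups' replicate numbers mark a pairing is not stated in the labels, and 3 arrays per group are too few to tell. The deviations of same-numbered arrays from their group means correlated at -0.009, 0.058 and 0.08, and those of differently numbered arrays at -0.075 to 0.028. With the replicate number as a block 0 probe sets passed (smallest adjusted p 0.0788), with 1677 at an unadjusted p under 0.05.

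The other 10 genes turned sign under some setting. With the deposited scaling these were Fdx1 (-0.0164), Alb (-0.363), Lcn2 (-0.1797) and A2m (-0.0227), and with all 9 arrays Lcn2 (-7e-04). When arrays were left out singly, Soat1 ranged from -0.0101 to 1.6003, Scarb1 from -0.2276 to 0.0961, Alb from -0.027 to 0.0414, Lcn2 from -0.2448 to 0.1681, A2m from -0.1273 to 0.3453, Kdr from -0.3965 to 0.0799, Sparc from -0.0425 to 0.1999, Cd4 from -0.0847 to 0.2422 and Fcgr2b from -0.1366 to 0.2077. The cause was not tested. Of the list medians recomputed, 712 stayed within the spread between arrays and 72 moved by more.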

Other observations

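Immediate early genes, which answer stress and growth signals within a short time, stood in no common direction. Over 40 genes the median log2 difference was 0.02, with 2 higher and 3 lower at an unadjusted p under 0.05 (5.0% and 7.5%). Jund, an AP-1 subunit gene, read 44.3, 8.20 and 69.5 in Sham-CLP 1 to 3 and 115, 259 and 176 in Burn-CLP 1 to 3 (1.42 ± 0.28) with 2 Sham-CLP arrays at the limit, while its second probe set differed by -0.25. Txnip, a thioredoxin inhibitor that glucose induces, differed by 0.56 ± 0.17. Id2, a helix-loop-helix inhibitor, read 2107, 2385 and 3664 in Sham-CLP 1 to 3 and 1896, 1523 and 1336 in Burn-CLP 1 to 3 (-0.75 ± 0.25). These differences did not pass limma's test after adjustment.

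Car3, the carbonic anhydrase III gene that is abundant in male rat liver, read 1671, 1865 and 5643 in Sham-CLP 1 to 3 and 157, 164 and 1439 in Burn-CLP 1 to 3 (-2.96 ± 0.88), and its second probe set differed by -2.25. The 3 Sham-Sham arrays read 8470, 6561 and 3966, so both groups with CLP lay mostly lower, and Sham-CLP 3 and Burn-CLP 3 were the highest arrays of their groups. Without Burn-CLP 3, the Burn-CLP array nearest to Sham-CLP, the difference was -4.04. Among gene list members not named so far were the repressor gene Hes6 (-1.01 ± 0.25), the iron-sensing gene Hfe (-0.76 ± 0.22), the apolipoprotein A-II gene Apoa2 (-0.66 ± 0.27), the mitotic cyclin gene Ccnb2 (0.72 ± 0.27) and the complement receptor gene C3ar1 (0.49 ± 0.19). Car3 was chosen after its values were seen.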
